A study of Cucumis melo with 12 samples.

Results

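A pair of genes for small secreted proteins of melon (*Cucumis melo*) was followed through seeds and radicles primed with *Bacillus velezensis* FZB42. They are MELO3C009108, described as a non-specific lipid-transfer protein (NSLTP), and MELO3C005540, described as a proline-rich DC2.15-like protein (PRP). Both were taken by identifier from a set of 16 genes that the study selected on these samples, which also supplies their names, so their being listed as different is not independent evidence. They are 2 of 3256 identifiers with a value in any group. Seeds of the variety Rochet Panal were surface sterilized with hypochlorite in every group and immersed for 90 min in distilled water (mock) or in a bacterial suspension, whose log10 CFU per ml was 7 for the low dose and 8 for the high dose. Seeds were sampled after the treatment, and radicles after 5 days of germination in darkness, which gave 6 groups of 2 libraries each (mock, low dose and high dose in either tissue), 12 in all. The bacteria were not inoculated onto the radicles, which received the treatment as seeds. The study reports that the strain colonized the seeds and was still present while radicles developed.

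Non-specific lipid-transfer proteins are small, cysteine-rich proteins that are secreted into the cell wall and hold lipids in a hydrophobic cavity. In plants they take part in the deposition of cutin, wax and suberin, and several inhibit microbes or act in defence signalling. DC2.15-like proteins carry a proline-rich stretch followed by a domain with the same cysteine pattern as lipid-transfer proteins, and are placed in the wall as well. The name comes from a carrot gene found in cells forming somatic embryos, and in *Arabidopsis thaliana* related proteins act in systemic immunity. Which of these roles the melon genes have was not measured here.

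The authors' values are 1 number per gene and group, combined from both libraries, and each group comes with a list of selected genes. The lists hold 3147 genes for mock radicles, 291 for low-dose and 3106 for high-dose radicles, and 153, 131 and 32 for mock, low-dose and high-dose seeds. In each tissue the mock list is as long as the low-dose and high-dose lists joined, with genes on both counted once. A mock list is thus not read as a separate selection. The values are named FPKM, but up to 46 genes share 1 mock radicle value, so they were read as a relative signal that is not per gene length. With no value per library there is no replicate error, and no test was run. Every difference below is a description, and read depth behind a value is unknown. Where a list leaves a gene out, its value in that group is unknown rather than 0. Whether the tissues carried their defining markers could not be checked, since the available gene table holds 0 of the 3256 identifiers, and for the same reason no other lipid-transfer or proline-rich genes could be picked out of the lists.

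The mock seed list holds no number of its own: within a relative tolerance of 1e-06, all 153 of its values repeat a low-dose or a high-dose seed value. Its entries for both genes are given below as listed and are not read as levels in mock seeds. NSLTP was present in 5 of the 6 lists, in both tissues, and PRP in 2, both of seeds. NSLTP stood at 7824 in mock radicles and at 3364 in low-dose radicles, and it was missing from high-dose radicles. In seeds its low-dose value was 3603 and its high-dose value 2564, and the list of mock seeds repeats 3603. PRP stood at 4202 in high-dose seeds, a number that the mock seed list repeats, so it says nothing of a difference from mock. PRP was missing from low-dose seeds and from all radicle lists, and the study reports no fold change for it in low-dose seeds or in radicles. The order of the NSLTP values, from high to low, was thus mock radicles, low-dose seeds, low-dose radicles and high-dose seeds. Without values per library, it cannot be said which neighbours in that order differ beyond their spread, and whether seed and radicle values share a scale is not stated.

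**Figure D1:**
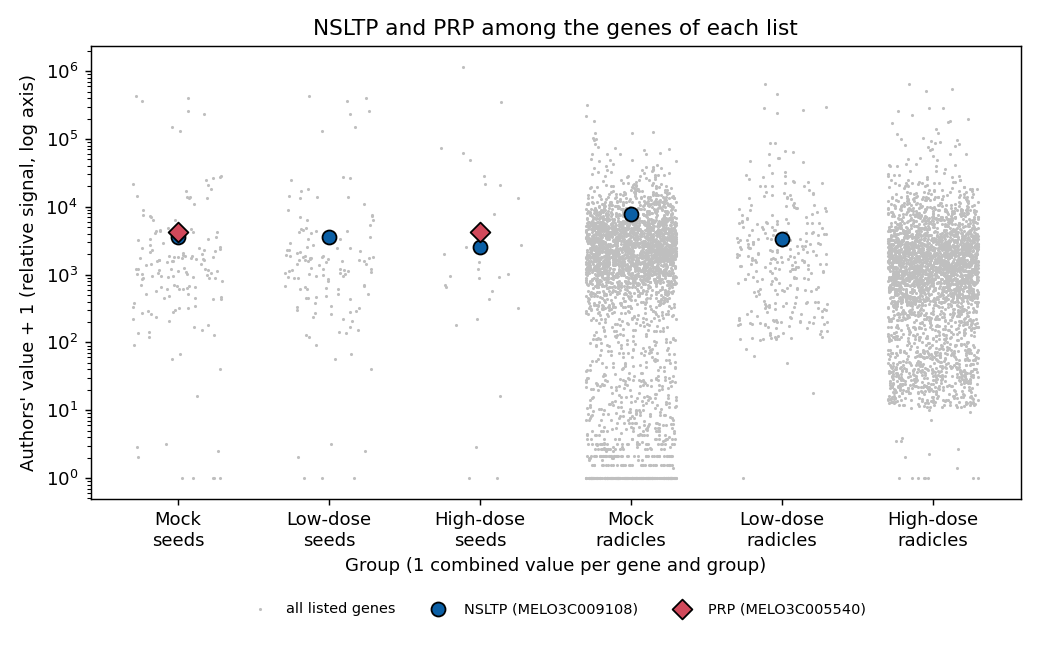
Authors' value plus 1 (relative signal, log axis) of each listed gene in the 6 groups, with NSLTP as circles and PRP as diamonds; each point is 1 gene with 1 combined value, with no error bars because no value per library is given. NSLTP lies between 2564 and 7824 in the 5 lists that hold it, and PRP at 4202 in its 2 lists; the points of the mock seed list repeat dose values.

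Within each list NSLTP was in the upper part. It ranked 314th of 3147 in mock radicles, with 90.02% of the listed genes below it, and 97th of 291 in low-dose radicles, with 66.7% below. In seeds it ranked 32nd of 131 at the low dose and 13th of 32 at the high dose, with 75.6% and 59.4% of genes below it. PRP ranked 11th of 32 in high-dose seeds, with 65.6% below. Among the 153 repeated values of the mock seed list NSLTP was 37th and PRP 34th, which describes no mock seed. If the scale is not per length, as it was read here, longer transcripts give more signal. A rank then compares signal and not transcript number. The lists also hold different genes, so ranks in lists of unequal make-up are not a change. Most genes of the mock radicle list are also on the high-dose radicle list, which does not hold NSLTP.

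In radicles, the low dose can be set against mock for NSLTP. Its value was 43.0% of mock, a log2((low dose + 1)/(mock + 1)) of -1.22. The size of this difference depended on the scaling, with -2.31 under quantile normalization and -2.88 under median ratio scaling. Neither scaling could have reversed its direction. Most genes of that list went the other way: 221 were above mock and 70 below, with a median log2 of 1.74 over all 291. Past a log2 of -1 lay 69 genes, NSLTP among them, which is 23.7% of the list, whereas 74.2% lay past 1 and thus 97.9% passed in either direction. Passing it was therefore the rule for a listed gene and tells nothing particular of NSLTP. Among the 70 genes below mock, whose log2 ran from -6.39 to -0.98 with a median of -1.33, NSLTP had the 50th lowest value, so its difference was among the smaller ones. By its mock value it was the 14th highest of these 70. Over the same 291 genes in both groups, NSLTP stood 31st in mock and 97th at the low dose. This shift in rank does not depend on how the lists were scaled to each other, but it does depend on which genes are listed, most of which were above mock. In RNA of whole radicles or seeds, fewer cells that express a gene and less RNA per cell cannot be told apart.

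**Figure D2:**
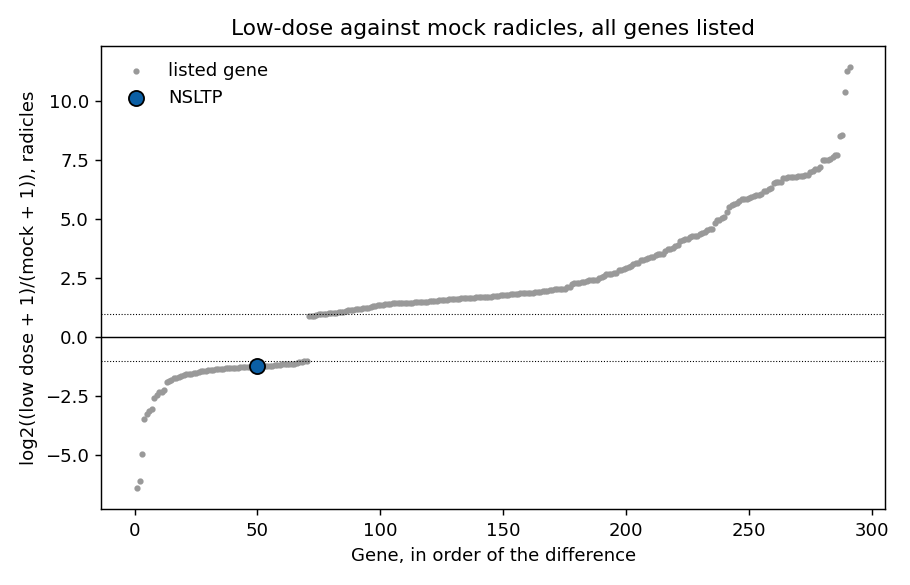
Difference between low-dose and mock radicles, as log2((low dose + 1)/(mock + 1)), for the 291 listed genes in order of the difference; each grey point is 1 gene, NSLTP is the large point, and dotted lines mark -1 and 1. NSLTP at -1.22 is 50th from the lowest, near the upper end of the 70 genes below mock.

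NSLTP was one of 41 low-dose radicle genes that were missing from the high-dose list, whereas 250 of the 291 were on both. Of the 41 genes, 14 were below mock and 27 above, and of the 250 genes 56 were below mock. This is 34.1% and 22.4%, and the difference was not tested. For NSLTP no high-dose radicle value exists, so neither a difference from mock nor one between doses can be given there. The study reports no fold change for NSLTP in that group either. Of the study's 16 named genes, 7 were on the low-dose radicle list, and 3 of them were missing from the high-dose list: NSLTP, RNApol subB (MELO3C011383), which encodes a subunit of an RNA polymerase, and the myb-type gene HTH (MELO3C014217). RNApol subB had a log2 of 2.92 and HTH of 1.32, so NSLTP, at -1.22, was the only one of the 3 below mock. Among the 7, PPR (MELO3C008512), which encodes a pentatricopeptide repeat protein, and LOX (MELO3C014630), which encodes a lipoxygenase, were below mock as well.

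In seeds, these lists allowed no comparison of treated with mock seeds for either gene. The mock list repeats the value of 131 of 131 low-dose genes and of 22 of 32 high-dose genes, NSLTP being among the former and PRP among the latter. Of the radicle values above 0, 0 were identical to mock. What remained in seeds was the high dose against the low dose for NSLTP, which was one of the 10 genes on both lists. At the high dose NSLTP had 71.2% of its low-dose value, a log2((high dose + 1)/(low dose + 1)) of -0.49. As listed, only 3 of the 10 genes were lower at the high dose. They were the allene oxide synthase gene *AOS* (MELO3C018413) at -1.24, MELO3C030130 at -0.76 and NSLTP. The NSLTP difference as listed was the smallest of all 10 in size, which did not hold under median ratio scaling. The other 7 ranged from 0.58 to 1.54. Past a log2 of -1 lay 1 gene, or 10% of the 10, and past 1 lay 40%, 50% in either direction. NSLTP was not among them as listed, but passed -1 under median ratio scaling, at -1.20. In rank among the 10, NSLTP went from 7th in low-dose to 8th in high-dose seeds. This is a move of a single place.

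**Figure D3:**
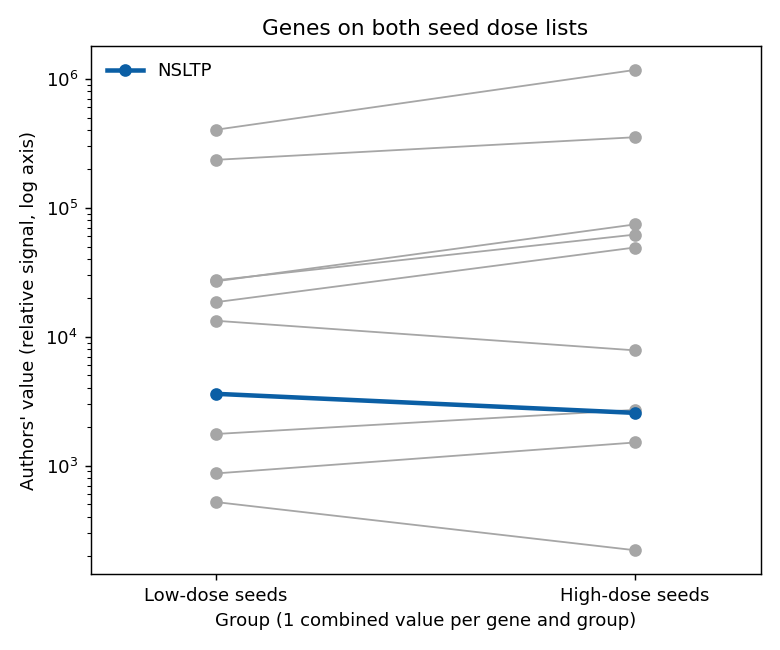
Authors' values (relative signal, log axis) in low-dose and high-dose seeds for the 10 genes on both lists; each line joins the 2 values of 1 gene, and the thick line is NSLTP, with no error bars because no value per library is given. NSLTP is at 3603 and 2564, while 7 of the 10 lines go up.

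NSLTP was also one of 14 genes on both low-dose lists, of seeds and of radicles. Its radicle value lay close to its seed value, with a log2 of radicle over seed of -0.10, compared with a median of 1.32 over the 14 genes. In this order it was 4th from the lowest, with 9 genes higher in radicles and 5 lower. Of the 14 genes, 4 were below mock in radicles, compared with 70 of 291 on the whole low-dose radicle list. The 4 were NSLTP, MELO3C018003 at -4.96, MELO3C023802 at -1.26 and MELO3C015556 at -1.17. These genes were named after their values were seen. Seed and radicle values are set side by side here without knowledge of a common scale.

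Few genes could be compared with NSLTP in profile. As listed, none of the 6 genes set against it shared its direction in radicles, so the nearest ones could not have done so. Only 7 genes had values on all 5 lists that hold it, NSLTP included, and 3 of these, namely NSLTP itself, RNApol subB and MELO3C030931, were missing from high-dose radicles. Likeness was measured as the root mean square difference of the log2 values, after each gene's mean was subtracted, over the 5 lists, of which the mock seed list adds no number of its own. The nearest of the 6 others was XLOC_047399, at 0.98 log2, and the next was MELO3C030931, at 1.40. Both had higher values at the low dose than in mock radicles, 7453 against 2637 for XLOC_047399 and 294865 against 59610 for MELO3C030931, and so went the opposite way from NSLTP there. RNApol subB was at 1.54, and was higher in high-dose than in low-dose seeds by 1.47 log2, where NSLTP was lower. Of the 16 named genes only NSLTP and RNApol subB, 2 in number, were on all of these lists.

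For PRP the lists give presence and a single level. It was one of 22 high-dose seed genes that were missing from the low-dose seed list, of which 12 were on radicle lists and 10, PRP among them, on none. The study's named set had 11 genes on the high-dose seed list, and 8 of these were missing from the low-dose list, as PRP was. Over the whole high-dose seed list it was 22 of 32, so this is nothing particular to the named set. Of the 16 named genes, 5 were on no radicle list, and all 5 were high-dose seed genes. Of all 32 high-dose seed genes, 13 were on no radicle list. Of all 3256 identifiers, 3147 were on a radicle list. These shares were not tested. For PRP, a measure of likeness to other genes has no meaning, because its mock and high-dose numbers are the same, as they are for all 22 genes. NSLTP and PRP therefore shared only the high-dose and the mock seed lists. Their values there are not compared with each other, since they were read as not per gene length.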

How the data were processed

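Per the paper's methods, RNA of biological duplicates was sequenced by a provider, and the DHL92 v4 genome of melon served as reference for alignment. That text describes rRNA-depleted directional libraries, whereas the labels name polyadenylated RNA. Bowtie2 and SAMtools are named, without a role, in the submitters' processing notes. The authors deposited 1 signal value per gene and group, under the name FPKM and on an unstated scale, for selected genes only. For its volcano plots the study joined the p-values of a pair of count-based tools by Fisher's method and drew thresholds of p and fold change. Whether these chose the deposited lists is not given in the sources used here. For each of the study's 16 named genes, a dose list held the gene where the study reports a fold change for that tissue and dose. Where it reports none, the gene was missing. Samples were grouped by their titles.

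Values under 1e-10 were set to 0. To each value a pseudocount of 1 was added before the log2 ratio was taken. Genes under 1 in both groups were left out. The planned limma fit needs values per library and was not run. The 2 genes, the comparison lists and the rule for likeness (up to 2 nearest genes) were chosen with earlier results of these data known. Genes beside them were named from the study's set of 16, by that rule, or after their values were seen. No position or sequence was used here. Counting and ranking were tested on simulated data. Alternatives were a pseudocount of 0.1 or none, no minimum, quantile normalization, median ratio scaling, other sets of genes for ranks and a log2 threshold of 2. Python 3.11.15, pandas 2.3.3, numpy 2.4.6 and matplotlib 3.10.9 were used.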

Additional observations from a re-analysis of the deposited data

How the results depend on the processing

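No paired analysis was possible because each group has 1 combined value, and for the same reason leaving out a replicate was not run. NSLTP stayed below its comparator under each pseudocount, minimum and scaling, but none of these could have reversed the direction. The pseudocounts and the minimum are small beside its values. Median ratio scaling lowered the treated values, and quantile normalization follows its rank, which was lower in the treated group. The alternatives thus bear on the size of the difference only. In low-dose against mock radicles its log2 went from -1.22 to -2.31 under quantile normalization and to -2.88 under median ratio scaling, which lowers every low-dose value by the median log2 of 1.66. Between seed doses it went from -0.49 to -1.20 under median ratio scaling, which subtracts 0.71 from every gene, and was -0.54 under quantile normalization. Under median ratio scaling the seed difference thus passed -1, which it did not as listed. The study's own log2 fold change for NSLTP in low-dose radicles equals the value as listed, before either scaling. Whether the medians removed reflect the selection of genes or a difference in scale between groups was not tested. Past an absolute log2 of 2, the counts were 122 higher and 12 lower in radicles, and 0 higher and 0 lower in seeds, through the stricter bound. In 21 of 21 alternatives for ranks (genes above 0, no XLOC loci, values of at least 10), the percent of genes below a member moved by at most 4.20 points. Without read counts, what depth limits was not computed.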
